A study of Mus musculus with 12 samples.

Results

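Chromatin that opened and chromatin that closed in wild-type (WT) regulatory T cells (Treg) within 4 hr of stimulation through the T cell receptor (TCR) and CD28 is described here from ATAC-seq, in which Tn5 transposase inserts sequencing adapters into accessible DNA. The WT cells were YFP+ Treg sorted from spleens of Foxp3-YFP-Cre mice, which carry an unmodified Ikzf1 gene and a YFP-Cre reporter driven from Foxp3, and each library held 100000 cells. The 3 unstimulated libraries were made from Treg directly ex vivo, and the 3 stimulated libraries from Treg kept on plate-bound anti-CD3 and anti-CD28. No library is labeled as kept in culture without the antibodies, so that stimulation and time in culture cannot be told apart. Sorted cells were divided between the unstimulated and stimulated arms, with no statement of which libraries share a sort. These 6 of the 12 libraries of the series were compared. The other 6 have the Ikzf1-fl-Foxp3-YFP-Cre genotype, a conditional knockout (Ikzf1-cko) in which the same Cre deletes the floxed Ikzf1 allele in Foxp3-expressing cells. They serve as a second set of unstimulated and stimulated Treg, whose response is set beside that of WT. They also entered the filter for tested regions and the shared estimate of the spread. All groups carry the Cre, ages are not given for these libraries, and the 3 libraries of a group are called biological replicates without a statement that they came from separate animals, so that p-values measure the spread between these libraries.

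Of 118680 deposited regions, 69957 had at least 3.6 CPM (reads of a region per 1000000 counted reads of its library) in at least 3 libraries and were tested. A region was called strong where all 3 libraries of either WT group had at least 10 CPM, which held for 21687 regions, and weak otherwise (48270 regions). Of the strong regions, 16255 were strong in both WT groups, 3891 ex vivo only and 1541 after stimulation only. A region was said to open or close when stimulated and ex vivo libraries differed at a Benjamini-Hochberg FDR under 0.05 in edgeR's quasi-likelihood test with an absolute log2 fold change over 1. Fold changes are stimulated over ex vivo and positions are those of mm9.

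T cells recognize antigen through the TCR, and CD28 provides the second signal. Together they activate calcium, MAP kinase and PKC pathways that end in the transcription factors NFAT, AP-1 (dimers of Fos and Jun proteins) and NF-kB. These factors bind promoters and enhancers, the stretches of open chromatin that ATAC-seq detects. Inhibitors of the same pathways, such as the ubiquitin ligase Cblb, the MAP kinase phosphatases of the Dusp family and the NF-kB inhibitor Tnfaip3 (A20), limit the response. Treg are defined by the factor Foxp3 and depend on TCR and CD28 signals for their maintenance and function.

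The central 150 bases of 7 called regions, picked by hand, are given as examples, 4 of them closed regions that hold the AP-1 word TGACTCA. They do not show how common the word is. In that window it was in 14.8% of all closed strong regions and 4.87% of those not called. Capitals mark TGACTCA, the RUNX word TGTGGTT and the TCF word ATCAAAG, on either strand, of which the reverse complement TGAGTCA is the form seen on the printed strand in 3 of these regions. All 7 regions lie in introns or between genes, passed both thresholds under each of the main scalings described below, and are written from the plus strand of mm9.
Zmynd11 intron, closed, chr13:9759386-9759535: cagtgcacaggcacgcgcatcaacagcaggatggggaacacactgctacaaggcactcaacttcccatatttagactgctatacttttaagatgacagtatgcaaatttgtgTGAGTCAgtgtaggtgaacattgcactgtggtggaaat
Itpkb intron, closed, chr1:182333768-182333917: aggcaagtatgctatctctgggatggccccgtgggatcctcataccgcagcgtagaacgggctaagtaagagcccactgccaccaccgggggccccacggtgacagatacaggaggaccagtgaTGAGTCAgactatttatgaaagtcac
Dusp10 intron, closed, chr1:185881362-185881511: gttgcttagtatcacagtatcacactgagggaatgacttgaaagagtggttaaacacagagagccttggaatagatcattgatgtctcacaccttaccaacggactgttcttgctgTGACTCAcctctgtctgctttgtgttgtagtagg
28.3 kb from Klf6, closed, chr13:5889380-5889529: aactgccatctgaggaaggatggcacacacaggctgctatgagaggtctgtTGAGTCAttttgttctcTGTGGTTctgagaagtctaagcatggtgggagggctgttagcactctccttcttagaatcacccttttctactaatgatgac
Entpd6 intron, closed, chr2:150576001-150576150: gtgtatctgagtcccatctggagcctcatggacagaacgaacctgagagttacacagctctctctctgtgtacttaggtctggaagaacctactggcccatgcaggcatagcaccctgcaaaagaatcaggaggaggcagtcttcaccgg
Bmper intron, opened, chr9:23249634-23249783: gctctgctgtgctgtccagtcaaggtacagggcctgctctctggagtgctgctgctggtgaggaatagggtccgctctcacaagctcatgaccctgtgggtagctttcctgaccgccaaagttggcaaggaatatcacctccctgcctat
Rel intron, opened, chr11:23654391-23654540: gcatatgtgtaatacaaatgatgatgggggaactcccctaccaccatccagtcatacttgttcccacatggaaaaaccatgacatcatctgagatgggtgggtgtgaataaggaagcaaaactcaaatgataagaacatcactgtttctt

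More strong regions closed than opened in WT Treg with library totals as the scaling, whereas most of the called weak regions opened. Among the 21687 strong regions, 1040 closed (4.8%) and 437 opened (2.02%). Among the 48270 weak regions, 11949 opened (24.8%) and 585 closed (1.21%). A weak region could be tested through high values in 1 group alone. With 3.6 CPM required in all 6 WT libraries, a filter that leaves out regions low ex vivo, 143 weak regions opened and 101 closed. Opened regions then made up 58.6% of the called weak regions, against 95.3% with the main filter. The largest falls of strong regions were within Rgs2, Entpd6 and Matr3, and the largest rises were within Bmper, beside the sperm motility kinase gene Smok2a and within Tcerg1l, with log2 fold changes near -2 and 2. The closed strong regions had a median level of 24.9 CPM ex vivo and 10.9 CPM after stimulation. The opened strong regions had a median level of 6.15 CPM ex vivo and 15.1 CPM after stimulation, so that 406 of the 437 were strong in the stimulated libraries only. A region that counts as strong through 1 group is one that is high in that group, and of the 1040 closed regions 557 were strong ex vivo only. In the 16255 regions that were strong in both groups, 483 closed (2.97%) and 31 opened (0.191%). Just around the threshold, among strong regions with a mean of 7 to 10 CPM over the 6 libraries, 17.4% opened and 12.3% closed, against 4.42% and 1.46% of weak regions with that mean.

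**Figure D1:**
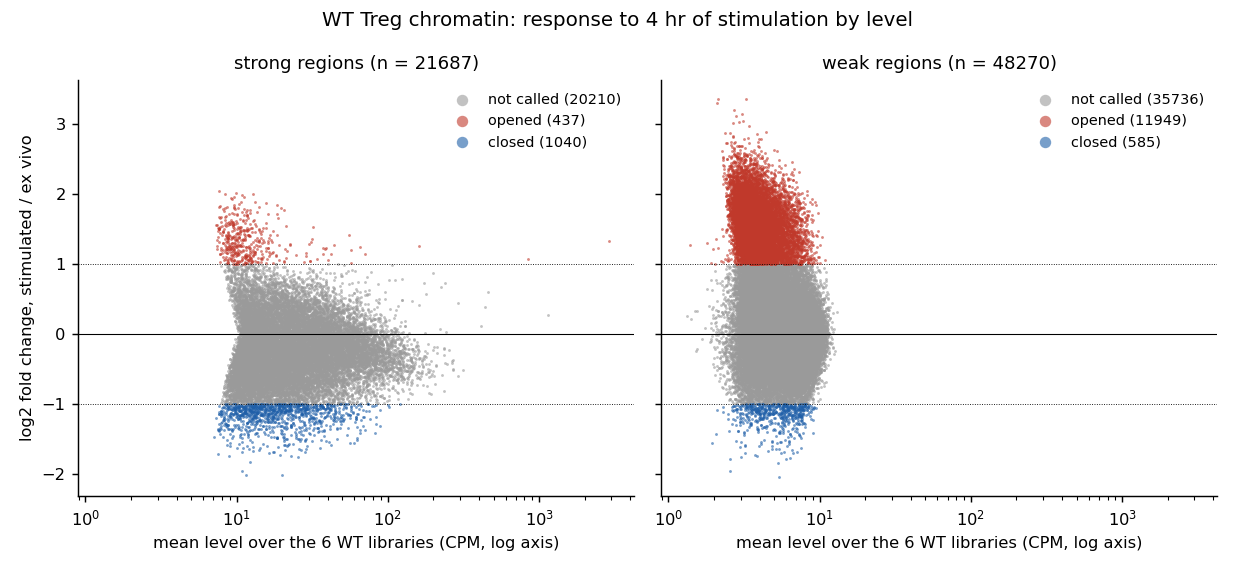
Each point is 1 region, with its mean level over the 6 WT libraries in CPM on a log axis and its log2 fold change of stimulated over ex vivo libraries, strong regions at left (n = 21687) and weak regions at right (n = 48270). Red points opened, blue points closed and grey points were not called, and the 437 opened strong regions sit mostly near the lower end of the level axis while the 1040 closed ones spread along it.

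The stimulated WT libraries had fewer of their reads in strong regions. Counted reads per library ranged from 4808916 to 8596567 in WT and from 9221901 to 15355521 in Ikzf1-cko. In WT, strong regions took 67.4% to 71.3% of the reads ex vivo and 57.2% to 60.6% after stimulation. In Ikzf1-cko they took 71.4% to 73.8% and 69.3% to 72.4%. Regions too low to be tested took 7.51% to 9.42% ex vivo and 13.1% to 15.2% after stimulation in WT, against 6.3% to 7.56% and 7.48% to 9.03% in Ikzf1-cko. The median log2 fold change was -0.25 over strong regions, 0.22 over weak regions and 0.04 over all tested regions. When the libraries were scaled on the strong regions themselves (TMM over strong regions), the medians moved to -0.01, 0.46 and 0.28, and 735 strong regions opened (3.39%) and 297 closed (1.37%), against 14323 (29.7%) and 146 (0.302%) of the weak ones. Opened regions then made up 71.2% of the called strong regions, against 29.6% with library totals as the scaling. Loess normalization against abundance gave 660 opened and 341 closed strong regions (65.9% opened) and 1577 opened and 1583 closed weak regions (49.9% opened), and a loess correction for GC content gave 281 opened and 1519 closed strong regions (15.6% opened). All 437 opened strong regions and 297 of the 1040 closed ones were called under both library totals and scaling on strong regions. Since that scaling moved the medians up by a similar amount in strong and weak regions, an opened region could hardly lose its call. The GC correction kept 257 of the 437 opened and 694 of the 1040 closed calls, and loess against abundance kept 435 and 340. The part of these read shares in the counts was not tested, and for each named region the call under scaling on strong regions is given below where it was lost.

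Libraries of each group ranked the strong regions alike. Spearman's rho across strong regions was 0.969 to 0.979 between ex vivo libraries, 0.950 to 0.965 between stimulated libraries and 0.808 to 0.854 between an ex vivo and a stimulated library, across regions that are not independent replicates. In all 1040 closed and all 437 opened strong regions the 3 libraries of each group did not overlap, as in 49.4% of all strong regions in the lower direction and 15.4% in the higher one. The FDR alone, without the limit on the fold change, was met by 10124 strong regions in the lower direction (46.7%) and 2986 in the higher one (13.8%). T cell marker start sites (Cd3e, Cd3d, Cd3g, Cd4 and Cd247, all 5 covered) summed to 56.2 to 62.5 CPM ex vivo and 47.5 to 60.7 CPM after stimulation. Of 5 Treg marker start sites 4 were covered, with sums of 64.8 to 72.7 and 57.2 to 72.3 CPM, and no region covered the Ikzf2 start site. No region covered the start sites of the B cell markers Cd79a, Ms4a1 and Pax5, of the myeloid markers Lyz2, Csf1r and Itgam, or of the NK marker Ncr1. The start site of the B cell gene Cd79b, a weak region, went from 1.54, 1.99 and 1.98 CPM to 5.13, 3.65 and 4.16 CPM and was called opened. Summed levels at covered start sites were 9.04 to 14.2 CPM ex vivo and 11.5 to 12.7 CPM after stimulation for the myeloid markers (Cd14 only), 15.1 to 18.7 and 16.8 to 18.4 CPM for NK markers, 19.8 to 24.8 and 19.4 to 22.2 CPM for CD8 markers, and 3.14 to 4.37 and 2.01 to 4.16 CPM for erythroid markers. Fewer cells of a type and less accessibility per cell cannot be told apart in these libraries.

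The largest falls were at single regions within or beside genes. At Rgs2, which encodes an inhibitor of G protein signaling, an exonic region (OCR_5760, chr1:145847533-145847853) held 17.3, 17.9 and 20.2 CPM in the 3 ex vivo libraries and 4.13, 5.66 and 3.95 CPM in the 3 stimulated ones. Every stimulated library thus had less than any ex vivo library (log2 fold change -2.02, SE 0.18, adjusted p = 8.1e-10). At Entpd6, a nucleoside diphosphatase gene, the intronic region printed above, 1.2 kb from the start site, went from 31.6, 31.4 and 32.6 CPM to 7.77, 8.77 and 7.07 CPM, with nearly equal libraries in each group (log2 fold change -2.01, SE 0.13). An intron of Mdfic held 18.3, 18.4 and 20.6 CPM ex vivo and 3.31, 6.94 and 6.24 CPM after stimulation (OCR_91451, log2 fold change -1.83, SE 0.19).

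An intron of Irak3, an inhibitor of Toll-like receptor and IL-1 receptor signaling, held 36.7, 40.8 and 39.2 CPM ex vivo and 10.1, 10.8 and 14.1 CPM after stimulation (OCR_15231, log2 fold change -1.76, SE 0.15). A weak region beside it in the same intron had the largest fall of the weak regions, from 8.08, 9.54 and 8.26 CPM to 1.98, 2.19 and 2.08 CPM (OCR_15230, log2 fold change -2.05, SE 0.24). The pair lies 3.9 and 4.7 kb from the start site of Tmbim4. The other 8 of the 12 largest falls of strong regions had log2 fold changes between -1.69 and -1.96. They lay in introns of Matr3, Rras2, Prpf39 and Sytl2, in an exon of Rgs10, and between genes near 3110043O21Rik, Tgfbr2 and Serping1. Rras2 is a Ras-related GTPase, Rgs10 another inhibitor of G protein signaling, and Tgfbr2 a receptor for TGF-beta, although that region lay 193.6 kb from its start site. All 12 were taken only from regions that also closed under scaling on strong regions.

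**Figure D2:**
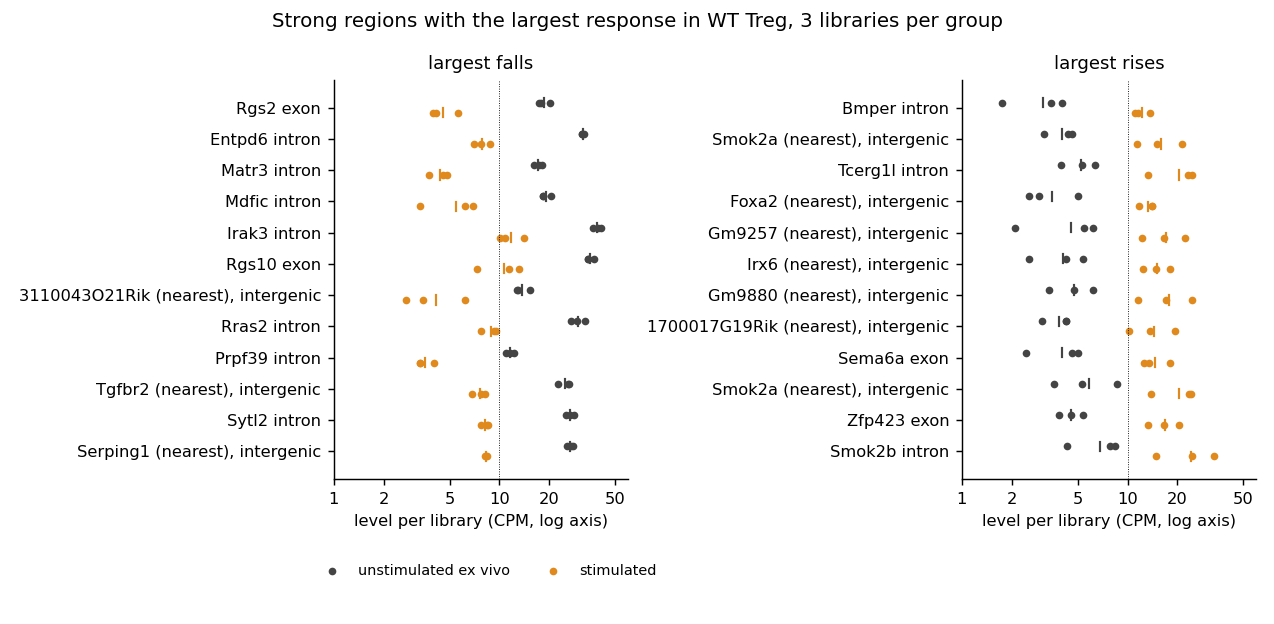
Each dot is the level of 1 WT library in CPM on a log axis, dark for ex vivo and orange for stimulated, with a short line at the mean of 3, for the 12 strong regions with the largest fall (left) and the 12 with the largest rise (right). The dotted line marks 10 CPM, and no region shows overlap between the groups, which was a condition of the choice.

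With each region given to the nearest protein-coding start site within 100 kb, 942 closed strong regions (4.65% of 20261) belonged to 674 of 11698 genes, and 315 opened ones (1.55%) to 242 genes. No gene had both. There were 60 genes with at least 3 closed regions and 17 with at least 3 opened ones, or 18 and 9 when only regions within 20 kb were counted, and 6 genes had 3 closed regions under both scalings.

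At Mdfic 7 of 15 strong regions closed, and 5 of the 7 also under scaling on strong regions. All 15 were lower after stimulation, with log2 fold changes from -1.83 to -0.30, and 6 of the 7 closed regions lay within the gene.

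At Cblb, which encodes a ubiquitin ligase that restrains TCR and CD28 signaling, 7 of 17 strong regions closed, 3 of them also under scaling on strong regions, and all 17 were lower. The highest of the closed ones, an intronic region (OCR_46249, chr16:52147182-52148060), held 120, 118 and 118 CPM ex vivo and 36.7, 47.7 and 49.3 CPM after stimulation (log2 fold change -1.42, SE 0.10, adjusted p = 7.8e-12). The largest fall at this gene was at an exonic region with 61.4, 58.2 and 63.7 CPM ex vivo and 20.8, 21.2 and 20.6 CPM after stimulation (OCR_46247, log2 fold change -1.55). The start site of Cblb was lower without being called (log2 fold change -0.83).

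Bach2, a repressor that keeps T cells in a resting state, had 7 closed regions among 17, all in its introns, and all 17 regions were lower. The intronic region with the smallest p held 45.2, 50.3 and 49.8 CPM ex vivo and 21.5, 22.5 and 15.8 CPM after stimulation (OCR_77788, log2 fold change -1.28, SE 0.11). Its start site differed by less than the limit on the fold change, with 64.8, 66.8 and 69.2 CPM ex vivo and 50.1, 60.3 and 50.3 CPM after stimulation (log2 fold change -0.32). Of the 7 closed regions 2 were also called under scaling on strong regions.

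At Dusp10, a phosphatase of the JNK and p38 kinases, 6 of 12 strong regions closed, 2 of them also under scaling on strong regions, and all 12 were lower. An upstream region 24.8 kb from the start site (OCR_8023, chr1:185811409-185812348) held 76.6, 76.3 and 87.2 CPM ex vivo and 35.2, 37.8 and 38.7 CPM after stimulation (log2 fold change -1.11, SE 0.09), which was not called under scaling on strong regions. The largest fall there was in an intron, from 12.1, 15.4 and 13.3 CPM to 5.79, 5.12 and 2.70 CPM (OCR_8039, log2 fold change -1.56). The intronic region printed above was of similar size (OCR_8040, log2 fold change -1.38).

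Within Itpkb, the kinase that converts inositol trisphosphate to the tetrakisphosphate in T cells, 6 of 13 strong regions closed, all intronic and 4 of them under both scalings. The nearest start site in the annotation is that of Gm5069, close to that of Itpkb. The region printed above held 94.8, 87.0 and 105 CPM ex vivo and 32.4, 39.3 and 35.8 CPM after stimulation (OCR_7829, log2 fold change -1.42, SE 0.09, adjusted p = 1.2e-12). The region over the start site differed by less than its error (log2 fold change -0.03, SE 0.13).

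Part of the TCR beta locus itself was less accessible after stimulation. Between 41482162 and 41509709 on chromosome 6, a stretch of 27.5 kb that holds Trbd1, Trbc1, Trbc2 and Trbv31, all 8 strong regions were lower and 5 closed. Trb genes are not typed as protein-coding in the annotation, so that the nearest protein-coding start site is that of Prss2. The region over the diversity segment Trbd1 held 20.6, 23.7 and 29.2 CPM ex vivo and 10.6, 11.5 and 11.6 CPM after stimulation (OCR_92590, log2 fold change -1.15, SE 0.14). A region at Trbv31 went from 30.8, 33.5 and 31.8 CPM to 11.7, 16.6 and 15 CPM (OCR_92602, log2 fold change -1.16, SE 0.13). The highest region of the stretch, between Trbc2 and Trbv31, held 101, 104 and 112 CPM ex vivo and 50.3, 63.2 and 61.3 CPM after stimulation and was not called (OCR_92600, log2 fold change -0.87). None of the 5 was closed under scaling on strong regions.

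Among the other genes with several closed regions, S1pr1, the receptor through which T cells leave lymphoid organs, had 5 of 19, St8sia1 5 of 11 and Pip4k2a 5 of 12. Nfkb1, Foxp1, Rgs1 and Ifnar1 had 4 each. Ctla4, Il7r, Fasl, Klf6, Ets1, Rora, Camk4 and Tnfaip3 had 3 each. Under scaling on strong regions none was left closed at Pip4k2a, Foxp1, Ctla4 and Il7r, 1 each at Rgs1, Ifnar1, Fasl, Ets1 and Camk4, 2 each at S1pr1, Nfkb1 and Rora, and 3 each at St8sia1, Klf6 and Tnfaip3. At Tnfaip3 a region 12.1 kb from the start site held 27.5, 30.1 and 33.0 CPM ex vivo and 8.27, 13.2 and 11 CPM after stimulation (OCR_9711, log2 fold change -1.50, SE 0.14). The pair of regions over its start sites had log2 fold changes of -0.34 and -0.39 and was not called.

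**Figure D3:**
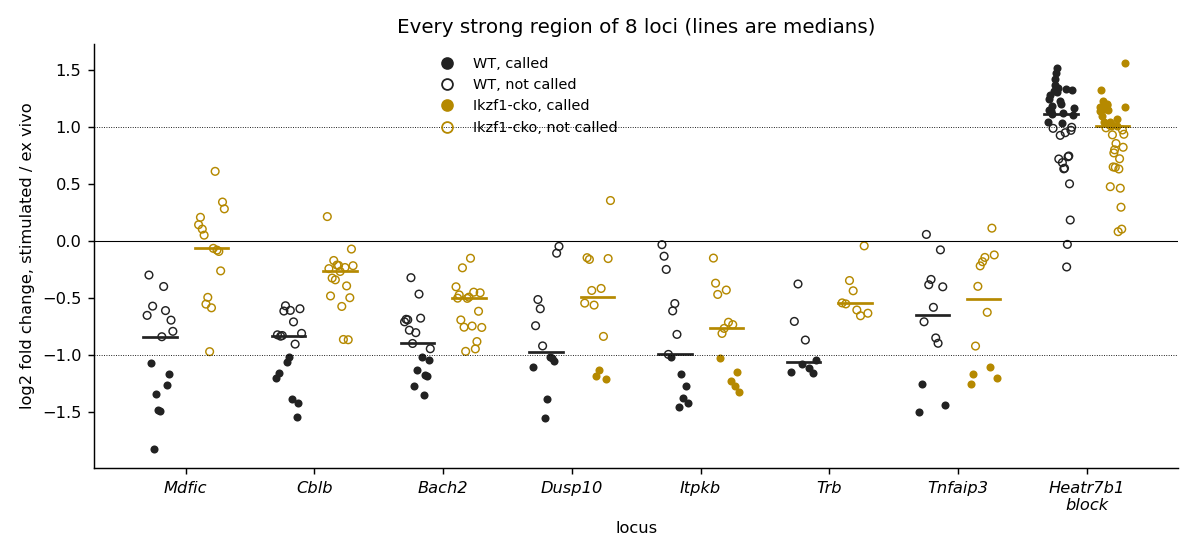
Each circle is the log2 fold change of 1 strong region, in WT (black) and in Ikzf1-cko Treg (yellow), for every strong region of 8 loci in order of position, filled where it was called, with a line at the median. At Mdfic, Cblb and Bach2 all WT circles lie below 0, whereas 35 of the 37 WT circles of the Heatr7b1 block lie above 0.

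Lists of genes with known roles in T cell activation gave closed regions but few opened ones. Over all strong regions within 100 kb of a start site, 4.65% closed, 1.55% opened and the median log2 fold change was -0.24. Of these 20261 regions 10190 lay over a start site. Among all strong regions 0.324% closed over start sites (median -0.07), 11.3% in introns (median -0.52) and 7.64% between genes (median -0.42). The lists were not matched to this background by place, and the part of place in their shares was not tested. Of 20 signal feedback genes, 23 of 125 regions closed and 1 opened, with a median of -0.59. Of 21 naive and quiescence genes, 22 of 163 regions closed and none opened, with a median of -0.57. Of 14 NF-kB factors and inhibitors, 10 of 63 regions closed and 1 opened, with a median of -0.41. Among 23 TCR-induced transcription factors 8 of 112 regions closed (median -0.40), and among 10 TNF receptor family genes 5 of 34 (median -0.56). The 13 genes of the AP-1 and ATF family had 31 strong regions, of which none closed or opened, with a median of -0.06. Under scaling on strong regions, 9 feedback, 5 naive, 5 NF-kB, 5 TCR-induced and 1 TNF receptor region were closed as well, against 1.34% of all strong regions within 100 kb.

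In the other lists, 5 of 26 regions of interferon signaling genes closed, 4 of 38 of activation metabolism genes, 5 of 77 of TCR complex and proximal signaling genes, 3 of 60 of Treg core genes, 3 of 51 of costimulatory and inhibitory receptor genes, 3 of 41 of homing and chemokine receptor genes, 2 of 22 of cytokine and chemokine genes and 3 of 34 of TNF family ligand genes. The list of B, myeloid, NK, CD8 and erythroid markers had 1 closed region of 14. Opened regions in all 15 lists numbered 3, at Ltb, Rel and Spry2.

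Among strong regions over start sites of listed genes, 2 of 10 closed in the TNF receptor family. In the naive and quiescence list 1 of 18 closed, in the homing and chemokine receptor list 1 of 10, and in the other lists none. Over all strong regions at start sites the share was 0.324%. The start site of Tnfrsf8 (CD30) held 39.2, 44.1 and 42.5 CPM ex vivo and 13.1, 17.0 and 14.3 CPM after stimulation (log2 fold change -1.51, SE 0.12, adjusted p = 8.2e-11). That of Tnfrsf9 (4-1BB), a costimulatory receptor, held 54.6, 50.2 and 55.1 CPM and then 21.2, 29.0 and 20 CPM (log2 fold change -1.18, SE 0.11, and not called at -0.95 under scaling on strong regions). The start site of the chemokine receptor gene Cxcr6 went from 16.9, 16.2 and 14.3 CPM to 5.79, 8.95 and 4.37 CPM (log2 fold change -1.29, SE 0.18).

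That of Il7r, the IL-7 receptor chain that is high on resting T cells, went from 16.5, 18.4 and 20.4 CPM to 8.27, 9.32 and 8.73 CPM (log2 fold change -1.09, SE 0.16, and not called at -0.85 under scaling on strong regions). At none of these 4 start sites did the groups overlap, as in all 1040 closed strong regions. Of all 10190 strong regions over a start site, 33 closed (0.324%) and 118 opened (1.16%).

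Among regions away from start sites, an intron of Tox, a factor induced by sustained TCR signals, held 88.5, 95.1 and 95.0 CPM ex vivo and 29.1, 37.3 and 31.6 CPM after stimulation (OCR_76867, log2 fold change -1.51, SE 0.10, adjusted p = 2.3e-12). An exonic region of Bhlhe40, a TCR-induced repressor, went from 56.2, 48.8 and 56.1 CPM to 13.1, 17.9 and 21.6 CPM (OCR_95735, log2 fold change -1.63, SE 0.15). An intron of Nfkb1, the p105/p50 subunit of NF-kB, went from 28.7, 32.9 and 33.5 CPM to 7.44, 14.8 and 11.9 CPM (OCR_75062, log2 fold change -1.50, SE 0.15). A region 22.0 kb from Fasl, the death ligand, went from 40.4, 38.8 and 41.5 CPM to 13.2, 11 and 13.9 CPM (OCR_6721, log2 fold change -1.67, SE 0.13).

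In none of these 4 regions did the groups overlap, as in all 1040 closed strong regions. An intron of Ikzf1, which is intact in these cells, held 68.5, 68.5 and 74.7 CPM ex vivo and 27.8, 35.6 and 27.2 CPM after stimulation (OCR_16488, log2 fold change -1.23, SE 0.11, and not called at -0.99 under scaling on strong regions). Regions near Socs3, Rgs1, S1pr1, Foxo1, Havcr2 (TIM-3), Ifnar1, Ifngr1 and Rora closed with log2 fold changes from -1.24 to -1.58. An exonic region of Ctla4 (log2 fold change -1.05), an exonic region of Il10 (-1.23), and introns of Cd44 (-1.01), Foxp1 (-1.08), Tnfrsf1b (-1.20) and Slc2a3 (-1.11) closed as well, but not under scaling on strong regions.

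At the Ltb start site, by contrast, accessibility rose. Ltb encodes lymphotoxin beta, a TNF family ligand, and the region (chr17:35330906-35332052) held 14.6, 14.3 and 12 CPM ex vivo and 24.3, 34.9 and 27 CPM after stimulation (log2 fold change 1.09, SE 0.15, adjusted p = 7.5e-07). The intron of Rel, the NF-kB subunit c-Rel, that is printed above went from 5.77, 7.29 and 5.58 CPM to 11.7, 14.2 and 12.9 CPM (OCR_16954, log2 fold change 1.05, SE 0.18). A region 93.4 kb from Spry2, a feedback inhibitor of receptor kinases, went from 5.96, 3.58 and 4.89 CPM to 11.2, 10.4 and 10.8 CPM (OCR_37833, log2 fold change 1.2, SE 0.22). All 3 also opened under scaling on strong regions, which raises the fold changes. Ltb fell below the limit with the GC correction (0.80), without ex vivo replicate 3 (0.99) and without stimulated replicate 2 (0.92). Without the same pair of libraries in turn the Rel region was at 0.96 and 0.98, and the Spry2 region was at 0.96 with the GC correction.

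Strong regions over the start sites of several immediate TCR-response genes and of the Treg genes Il2ra and Ctla4 were not called. The start site of Nr4a1, an early reporter of TCR signaling, held 56.2, 52.3 and 54.3 CPM ex vivo and 48.9, 57.9 and 61.6 CPM after stimulation (log2 fold change 0.05, SE 0.08). Those of Egr2 (-0.28), Irf4 (-0.14) and Myc (-0.20) also had log2 fold changes below the limit, as did those of Il2ra (0.00), Klf2 (0.08), Lef1 (-0.13), Satb1 (-0.22), Ccr7 (-0.22), Tnfrsf4 (-0.57) and Tnfrsf18 (-0.35). The Ctla4 start site had a log2 fold change of -0.86, with 25.8, 30.2 and 29.2 CPM ex vivo and 14.2, 19.2 and 13.9 CPM after stimulation. The start site of Tcf7, the factor TCF1 of naive T cells, had 15.6, 17.4 and 18.3 CPM ex vivo and 18.9, 32.3 and 32.2 CPM after stimulation (log2 fold change 0.68, adjusted p = 0.00052), short of the limit. At Foxp3 no strong region covered a start site, and the strong intronic region nearest to it held 16.9, 17.5 and 17.4 CPM ex vivo and 11.4, 17.7 and 12.3 CPM after stimulation, with overlapping libraries (log2 fold change -0.33, SE 0.15). Near Ikzf2 the region with the smallest p was not called either (log2 fold change -0.47).

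Opened strong regions lay in other kinds of places. An intronic region of Bmper (OCR_112102, chr9:23249170-23250246), a gene for a secreted regulator of BMP signaling, held 4.04, 3.44 and 1.74 CPM ex vivo and 13.7, 11.1 and 11.6 CPM after stimulation, the largest rise (log2 fold change 2.05, SE 0.29, adjusted p = 1.8e-06). A region 2.2 kb upstream of Smok2a held 4.62, 4.37 and 3.14 CPM and then 21.3, 11.3 and 15 CPM (OCR_48884, log2 fold change 2.01, SE 0.25). In an intron of Tcerg1l the values were 6.35, 5.30 and 3.96 CPM and then 23.3, 13.3 and 24.3 CPM (OCR_104877, log2 fold change 2.00, SE 0.31). In 9 of the 12 regions with the largest rise the nearest start site was over 30 kb away, among them those of the developmental factors Foxa2 (119.3 kb) and Irx6 (88.8 kb). In the 3 regions given by library, stimulated replicate 2 was the lowest of its group. Every stimulated library was above every ex vivo one, which the choice of these regions required. The 12 regions had log2 fold changes from 1.87 to 2.05.

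Among genes with several opened regions, Smok2a had 5 of 5 strong regions opened, Gm16387 9 of 9, and Gm10354, Gm9758 and Prl2c2 4 of 4 each. Mup5, a major urinary protein gene, had 3 of 3, and Odz4 4 of 8. All 4 regions at Gm10354 have most of their sequence at other places in the genome as well. Regions with at least 50% of their 32-base words found elsewhere in mm9 made up 33 of the 437 opened regions (7.55%), 9 of the 1040 closed ones (0.865%) and 184 of the 20210 strong regions not called (0.91%). In such regions, reads cannot be placed with certainty. Of the 226 multi-copy strong regions 14.6% opened, and without them 404 of 21461 strong regions opened (1.88%).

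The largest group was a block on chromosome 1 from 90108255 to 90207304, over and between Ugt1a1, Heatr7b1, Hjurp and Trpm8, with 37 strong regions in 99.0 kb. Of these, 35 were higher after stimulation and 22 opened, none closed, and none was multi-copy by the same measure. The log2 fold changes in the block had a median of 1.11 and ran from -0.23 to 1.51. In the Ikzf1-cko libraries the median of the same 37 regions was 1.01, and 20 opened.

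The region with the most reads of all also opened. It lies outside the protein-coding genes of the annotation, on chromosome 17 (39980016 to 39983685), 361.9 kb from Pgk2. The levels were 2008, 1758 and 1206 CPM ex vivo and 4171, 4552 and 3722 CPM after stimulation (OCR_50459, log2 fold change 1.33, SE 0.10). The neighboring region, 39984447 to 39985781, overlaps the pseudogene AY036118 and held 548 ± 188 CPM ex vivo and 1146 ± 116 CPM after stimulation (SD, n = 3; OCR_50460, log2 fold change 1.07). In both, every stimulated library was above every ex vivo one, as in all 437 opened strong regions. The Ikzf1-cko libraries had log2 fold changes of 1.29 and 1.15 in the same pair. Among strong regions not called, the highest group mean was 1259 CPM. The multi-copy measure searched only the mm9 sequence and cannot count any copies absent from it. How far reads from other copies of the sequence enter the levels of this pair was not tested.

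Weak regions that opened rose from a median of 1.97 to 5.56 CPM. They lay between genes in 61.1% of cases, against 47.5% of all weak regions, and 48.0% were over 100 kb from a protein-coding start site, against 21.8%. Their median length was 445 bases, against 498.5 bases over all weak regions. The 5 with the largest rise had log2 fold changes from 3.14 to 3.36 and lay in introns of Agap1 and Esrrg and between genes near 8030423J24Rik, Tcerg1l and Plxna2. The Esrrg region held 1, 3 and 4 reads in the ex vivo libraries and 22, 20 and 20 in the stimulated ones (OCR_8301). With so few reads the size of such a rise is imprecise (SE 0.59 for this one). When 3.6 CPM was required in all 6 WT libraries, 143 weak regions opened and 101 closed. That filter removes regions low ex vivo by construction, so that the smaller count does not measure how reliable the rises are. At Foxp3 a weak region over an upstream start site opened (OCR_116779, mean of 5.46 CPM over the 6 libraries, log2 fold change 1.11), and the region over the other start site was not called (OCR_116782, log2 fold change 0.08).

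Closed and opened regions differed in place and base composition. Of closed strong regions 48.8% lay in introns, 41.3% between genes and 3.17% at start sites, whereas of opened ones 49.7% lay between genes and 27% at start sites. Among strong regions not called, 49.7% were at start sites. Seen by place, 11.3% of strong intronic regions closed and 1.23% opened, against 7.64% and 3.87% between genes and 0.324% and 1.16% at start sites. The median GC content was 46.0% in closed regions, 55.3% in opened ones and 54.7% in those not called. In the quintile of strong regions with the lowest GC content 592 of 4338 closed (13.6%), and in the quintile with the highest 2 of 4337 (0.0461%), while 1.36% and 2.70% opened. Away from start sites and below the median GC content, 10.5% closed and 1.98% opened.

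**Figure D4:**
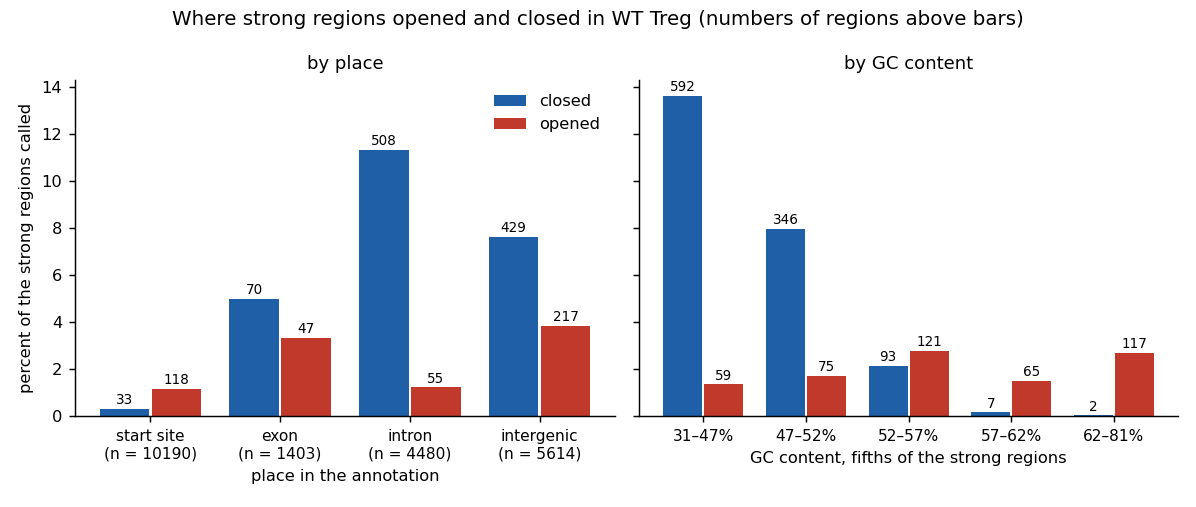
Bars give the percent of strong regions that closed (blue) or opened (red), by place in the annotation (left) and by quintile of GC content (right), with numbers of regions above the bars. Closure was most frequent in introns (508 of 4480) and in the quintile of lowest GC content (592 of 4338).

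Short sequence words also differed between the classes, counted on both strands in the central 300 bases of each region. The AP-1 word TGACTCA was in 271 of 1040 closed strong regions (26.1%), 1701 of 20210 not called (8.42%) and 15 of 437 opened (3.43%), and in 9.16% of all strong regions. Read the other way, 13.6% of the 1987 strong regions with the word closed and 3.9% of the 19700 without it. Away from start sites the shares were 26.2%, 14.3% and 4.08%. Within quintiles of GC content away from start sites, the word was in 27.2% of closed and 17.3% of not called regions in the lowest quintile, 24.0% and 15.4% in the second, and 28.7% and 12.5% in the third, and the upper quintiles held 6 closed regions. It occurred along the whole window, in 1.73% to 3.37% of closed regions per 25 bases. In the central 150 bases the shares were 14.8%, 4.87% and 1.37%.

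The other words were as follows, with shares in closed, not called and opened strong regions. RUNX (TGTGGTT) was in 16.8%, 8.08% and 5.72%, and TCF (ATCAAAG) in 7.98%, 3.79% and 3.43%. Within the lowest GC quintile away from start sites, however, RUNX was in 17.7% of closed and 16.9% of not called regions and TCF in 9.01% and 8.53%, close to each other. ETS (CAGGAAG) was in 22.2%, 17.6% and 10.1%, KLF (GGGTGTG) in 11.6%, 8.69% and 9.38%, and FOX (GTAAACA) in 4.90%, 3.29% and 2.52%. NFAT (TGGAAA) was in 20.1%, 17.7% and 16.2%, NF-kB (GGGANTTTC) in 2.12%, 1.47% and 3 of 437, ISRE (GAAANNGAA) in 10.2%, 8.14% and 3.66%, NR4A (AAAGGTCA) in 1.83%, 1.55% and 1.83%, and CRE (TGACGTCA) in 1.63%, 1.76% and 0 of 437. EGR (GCGTGGG) was in 2.79%, 7.24% and 5.72%, NRF1 (GCGCATGC) in 0.0962%, 2.29% and 3 of 437, and the Ikaros core (GGGAA), which can share bases with the NF-kB word, in 51.9%, 60.2% and 62.7%. Away from start sites several of these orders turned, as ETS was in 22.1% of closed and 23.9% of not called regions, NFAT in 20.3% and 23.8%, ISRE in 10.2% and 11.3%, FOX in 4.87% and 4.98%, NF-kB in 1.99% and 2.06%, NR4A in 1.89% and 2.5%, and CRE in 1.69% and 1.28%. There RUNX was in 16.7% and 13.2%, TCF in 8.24% and 6.18% and KLF in 11.7% and 10.0%. Over all strong regions no single word was frequent in opened regions beyond its share in those not called, apart from small differences for the Ikaros core, KLF and NR4A. These shares describe letters in the reference sequence and do not show that a factor was bound.

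Most regions called in WT had a fold change of the same sign in Treg that lack Ikaros, in 6 libraries that share none with the WT comparison. Of the 1040 strong regions closed in WT, 1030 had a log2 fold change below 0 in Ikzf1-cko Treg (99.0%), against 53.8% of the strong regions not called in WT and 68.1% of those away from start sites. By the same thresholds 113 of the 1040 closed in Ikzf1-cko Treg (10.9%), against 0.71% of all strong regions. Of the 437 strong regions opened in WT, 412 were above 0 in Ikzf1-cko Treg (94.3%, against 46.2%), and 75 opened (17.2%, against 0.512%). The median log2 fold changes of the closed regions were -1.13 in WT and -0.57 in Ikzf1-cko Treg, and those of the opened regions 1.30 and 0.66. The regions were chosen by their WT values, which makes the WT value the larger of the pair by choice, so that these medians do not by themselves show a smaller response in Ikzf1-cko Treg.

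**Figure D5:**
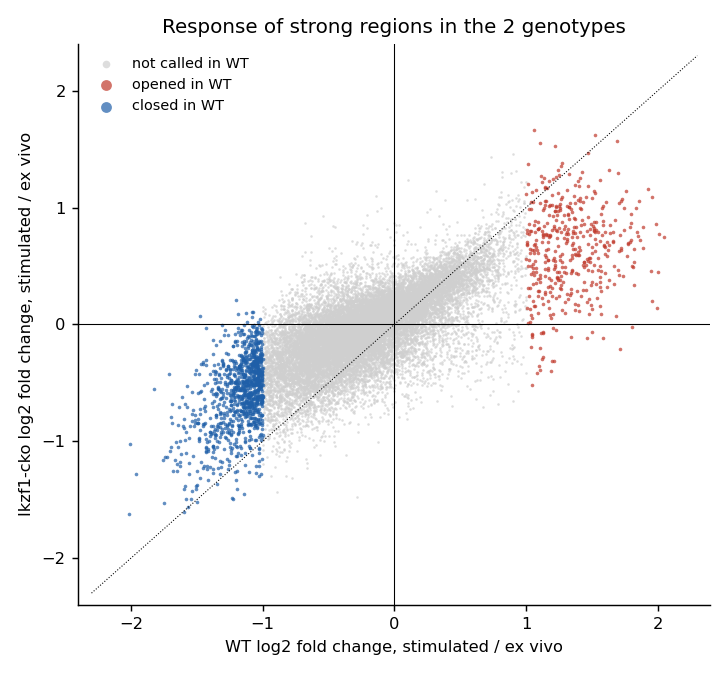
Each point is 1 strong region, with its WT log2 fold change on the horizontal axis and its Ikzf1-cko log2 fold change on the vertical axis, both stimulated over ex vivo, and a dotted line of equal values. Regions closed in WT (blue, 1040) lie below 0 on the vertical axis in 1030 cases, and regions opened in WT (red, 437) above 0 in 412.

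The difference between the responses was tested directly as the interaction of stimulation and genotype. It passed both thresholds in 263 of the 21687 strong regions, 117 with a higher fold change in WT (0.539%) and 146 with a lower one (0.673%), or 211 (0.973%) and 21 (0.0968%) under scaling on strong regions, 142 and 100 with TMM over all tested regions and 157 and 35 with loess normalization. Among weak regions it passed in 863 in the higher direction (1.79%) and 259 in the lower one (0.537%). Read shares moved more with stimulation in the WT than in the Ikzf1-cko libraries, and the part of this in the interaction was not tested. The WT values that chose the closed and opened regions also enter the interaction, so that the counts within them are descriptions. Among WT-closed regions 63 had a lower fold change in WT, 11 of them under both scalings, and among WT-opened regions 70 had a higher one, all 70 under both. Scaling on strong regions raised the interaction as well, so that a higher one could hardly lose its call. Upstream of Rgs1, an inhibitor of G protein signaling, a region fell in WT from 43.5, 45.2 and 49.2 CPM to 14.7, 19.4 and 19.8 CPM, whereas Ikzf1-cko libraries had 51.7 ± 8.56 and 47.3 ± 2.33 CPM (SD, n = 3; OCR_5805, interaction -1.24, SE 0.16, adjusted p = 6.3e-05). The Cxcr6 start site had 9.73 ± 1.05 and 9.46 ± 0.593 CPM in Ikzf1-cko Treg (interaction -1.24, SE 0.24).

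The region near Spry2 that opened in WT had 6.55 ± 1.90 and 5.26 ± 0.892 CPM in Ikzf1-cko Treg (interaction 1.51, SE 0.29, adjusted p = 0.0016). At Mdfic the closed intronic region named first had 26.3 ± 3.83 and 18 ± 0.464 CPM in Ikzf1-cko Treg (interaction -1.27, SE 0.23), and the 15 regions of the locus had a median log2 fold change of -0.84 in WT and -0.07 in Ikzf1-cko Treg. In the introns of Itpkb, by contrast, the 13 regions had medians of -1.0 and -0.77, 5 closed in Ikzf1-cko Treg, and for the printed region the interaction was -0.09 (adjusted p = 0.67).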

How the data were processed

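ATAC-seq reads of the 12 libraries were aligned by the authors to mm9, per the labels, with Bowtie2, and MACS2 peaks present in at least 2 replicates were merged. The deposited table holds the read count of each region in each library, and beside it FPKM and log2 FPKM made by the authors, which were not used. A second deposited table of the authors' own comparisons (log2 fold changes, p-values) was not used. The authors scaled on background bins of the genome, which needs reads outside the deposited regions, so that the scaling here differs from theirs.

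Counts were tested in edgeR 4.0.16 (R 4.3.3, glmQLFit and glmQLFTest) with library totals as scaling and 4 group means over all 12 libraries, which share 1 estimate of the spread. Tested regions had at least 3.6 CPM in 3 libraries, calls were made at 0.05 (FDR) with log2 fold changes beyond 1 in size, and the interaction was the WT minus the Ikzf1-cko response. Run on simulated data for the WT contrast (69957 regions), the test found 162 of 200 planted changes of 1.5 (log2) and made 2 false calls, and 184 of 200 changes of 2 with 7 false calls. The simulated libraries shared 1 mean per region apart from the 200 planted changes. These counts therefore do not cover the shift in read shares between ex vivo and stimulated libraries. Totals of 4808916 to 8596567 reads per WT library limit the precision of weak regions most. Alternatives used limma 3.58.1, DESeq2 1.42.0, other scalings, filters and thresholds, a replicate block, and each library left out. Multi-copy regions were those with at least 50% of 32-base words found elsewhere.

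Named regions were the 12 largest rises and falls of strong regions called under both scalings without overlap of libraries, at most 2 per gene, the 5 weak ones in each direction, genes with 3 or more called regions, and, for listed genes, the start site region and that with the smallest p. Single regions shown for a locus beyond this rule, the highest-count pair on chromosome 17 and the weak Foxp3 regions were picked after their values were seen. Values of some listed genes are not reported here. Members and lists were chosen with earlier results of these data known. Sequences were read from the mm9 genome.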

Additional observations from a re-analysis of the deposited data

Results flagged for a closer look

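The WT and Ikzf1-cko responses differed by the test of the interaction in 263 strong regions (edgeR, Benjamini-Hochberg FDR under 0.05 and absolute log2 difference over 1). Among the regions named for their WT response, the interaction log2 fold change (WT minus Ikzf1-cko) was past both thresholds in 15, and in 13 of them also under scaling on strong regions. The other 2 were introns of Nfkb1 (-1.11, and -0.92 under that scaling) and Mthfs (OCR_114847, -1.51, with an adjusted p of 0.068 in edgeR under that scaling). The 13 regions were chosen by WT values that also enter the interaction. Among them it was higher in WT near Smok2a (1.24, OCR_48884), in the Tcerg1l intron (1.56, OCR_104877) and near it (3.54, OCR_104896), near Foxa2 (1.85), Irx6 (1.76), 1700017G19Rik (1.49), Plxna2 (2.67) and Spry2 (1.51), and in the Esrrg intron (3.48). It was lower in WT in introns of Mdfic (-1.27) and Prpf39 (-1.29), at the Cxcr6 start site (-1.24) and upstream of Rgs1 (-1.24).

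Regions too low to be tested held reads in every library, and the stimulated WT library with the lowest share still had 13.1% of its reads there, above the highest share of the ex vivo WT libraries (9.42%). The part of this share in the results was not tested.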

How the results depend on the processing

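Scaling on strong regions gave 735 opened and 297 closed strong regions and 146 closed weak ones, and loess against abundance gave 660, 341, 1577 opened weak and 1583 closed weak. With the loess correction for GC content 281 strong regions opened. Without a filter 29810 weak regions opened, and with 3.6 CPM required in all 6 WT libraries 143 weak regions opened and 101 closed. With strong set at 5 CPM 4160 strong regions opened, 175 weak regions closed and 937 interactions were called, and at 20 CPM 54 opened, 597 closed, 1028 weak regions closed and 61 interactions were called. With strong set by the mean, 263 opened. An alternative chosen after seeing the data, regions strong in both WT groups only, gave 31 opened and 483 closed. Fewer or more regions counted follow from the construction of these thresholds, and for the scalings the cause was not tested.

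Leaving out 1 library gave 339 to 515 opened and 856 to 1370 closed strong regions, 9579 to 12666 opened and 605 to 1022 closed weak ones, and 170 to 454 interactions. The extremes of the interaction count came without stimulated replicate 1 (170), without ex vivo replicate 3 (173) and without stimulated replicate 2 (454), and the last also gave the 1022 weak closures. DESeq2 gave 397 opened and 1240 closed strong regions, and limma 426 and 1022. No called named region changed sign under any alternative run, whereas 10 that were not called did, such as the start sites of Nr4a1 (-0.19 to 0.30) and Klf2 (-0.18 to 0.34). The balance of strong calls turned from 29.6% opened to 71.2% under scaling on strong regions. Among the 97 named regions, 16 lost their call with loess against abundance, 14 with scaling on strong regions and 8 with the GC correction. These counts are not shares of 97, since the named regions that were not called had no call to lose. The largest rises and falls were named only if called under both scalings, so that none of them could lose its call under scaling on strong regions.

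The replicate block gave 423 opened and 1012 closed strong regions. Deviations of same-numbered WT libraries correlated at 0.218, 0.072 and 0.039 over strong regions, against -0.22 to 0.16 for differently numbered ones. No source ties same-numbered libraries to 1 sort, so that the number was not taken as pairing. With 3 libraries a group and 4808916 reads in the smallest, depth limits the weak regions most.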
